A study of Mus musculus with 9 samples.

Results

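The genes described here are 41 mouse genes of the actin cytoskeleton and of the focal adhesions that tie it to the extracellular matrix. They were picked by gene name from the 54532 genes of an expression table and fall into 9 roles: actins, myosin II chains, tropomyosins, filament turnover and capping, cross-linkers, integrins, adhesion plaque, plaque adaptors of the PDLIM and SORBS families, and ERM membrane linkers. RNA was sequenced from primary hepatocytes of C57BL/6 mice in 3 groups of 3 libraries each. The CKO Tu group carried COX-2 fl/fl with Alb-Cre, which deletes COX-2 (gene Ptgs2) in hepatocytes, and received tunicamycin at 6 μmol/L for 24 hours. The WT Tu group carried the same COX-2 fl/fl alleles without Cre, came from age-matched littermates and received tunicamycin in the same way, and the WT DMSO group had that Cre-negative genotype with vehicle for 24 hours. All 3 groups were first held in 1% serum for 2 hours. The labels describe male mice and give no age. Whether the 3 libraries of a group stem from different mice is not stated, so p-values here refer to the spread between libraries, which may be technical. There was no CKO group with vehicle, so whether the genotype difference depends on tunicamycin could not be tested here. In such a mouse the albumin promoter drives Cre, and cells other than hepatocytes keep their COX-2.

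Actin monomers assemble into filaments that tropomyosins coat, alpha-actinins and filamins cross-link, and nonmuscle myosin II pulls. At focal adhesions, talin and vinculin couple these filaments to integrins, the heterodimeric receptors for fibronectin, laminins and other matrix proteins, while ERM proteins tie filaments to the plasma membrane. Hepatocytes attached to a culture dish spread and form stress fibres, whereas in the liver their actin is concentrated under the membrane around the bile canaliculi. Many genes of this system carry binding sites for serum response factor (SRF), which acts with cofactors that bind monomeric actin, or for TEAD factors, which act with YAP and TAZ. Tunicamycin inhibits the N-glycosylation of proteins in the endoplasmic reticulum, a modification that integrins carry.

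Levels are the FPKM values that the authors deposited, which divide a gene's fragments by its length and by the size of the library. Fragments recovered from these values came to 14897358 to 16001484 per library. WT Tu replicate 1 was set off from its group, at -36.65 on the second principal component against -19.6 for both others, and had the highest share of mitochondrial fragments, 6.87%. Its value was the lowest of the WT Tu libraries in 21 of the 38 members tested (55.3%), and in 40.2% of all genes tested. Ptgs2 had 1, 1 and 2 fragments in the CKO Tu libraries, 8, 5 and 5 in the WT Tu libraries, and 0, 13 and 8 in the WT DMSO libraries. Although both genotypes are labelled male, Xist had 0 to 3 fragments in each CKO Tu library and at least 20659 in each WT library, and 4 Y-linked genes together had at least 3486 fragments in each CKO Tu library and 0 in each WT library. Sex, as read from these genes, thus went with genotype in every library. In the comparisons of CKO Tu with either WT group, they cannot be told apart for any gene, on whichever chromosome. Changes given below as lying between the genotypes carry that limit. Of the members, Flna and Msn lie on the X chromosome.

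Changes are differences of log2(FPKM + 1), fitted with limma over all 9 libraries, with a two-sided test and Benjamini-Hochberg adjustment over the 11858 genes whose FPKM reached 1 in 3 or more libraries. A gene was called higher or lower at an adjusted p under 0.05. Because of the pseudocount of 1, weakly expressed genes show smaller changes on this scale than their mean FPKM do. Of the 41 members, 38 passed the FPKM filter. Sorbs2 passed it through the WT DMSO libraries alone and Sorbs3 through the CKO Tu libraries alone, so their changes are not counted as support.

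Most of the contractile and adhesion genes were lower in tunicamycin-treated than in vehicle-treated wild-type cells. For WT Tu against WT DMSO, 30 of the 38 members tested were called in either direction, where 33.6% of all genes tested were. Of these, 28 were called lower, where 15.9% of all genes were, and 2 were called higher, Tln1 and Ptk2, where 17.7% of all genes were. The groups did not overlap in 32 members, against 46.7% of all genes. The median log2 change was -0.45 over the members and 0 over all genes tested. Without Sorbs2 and Sorbs3, the counts were 27 lower and 2 higher of 36, and the groups did not overlap in 31 of the 36. With no filter on low values, which covers all 41 members, 25 were called lower, beside 1504 of all 28630 genes then tested.

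Between the genotypes under tunicamycin, fewer members differed, and most of those were lower in CKO Tu. There, 19 of the 38 members passed in either direction, against 38.3% of all genes tested. Of these, 18 were called lower in CKO Tu against WT Tu, where 19.6% of all genes were, and 1 was called higher, Flna, where 18.7% of all genes were. The other 19 did not pass. Without Sorbs2 and Sorbs3, the counts were 18 lower and 1 higher of 36. The groups did not overlap in 23 of the 38, or in 22 of those 36, against 51.2% of all genes. The median log2 change was -0.22 over the members and 0 over all genes. With no filter on low values, 14 of the 41 were called lower, beside 1984 of all 28630 genes then tested. This comparison and the preceding one share the WT Tu libraries, so their changes are not independent.

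Set against vehicle-treated wild-type cells, the CKO Tu cells had lower levels of nearly the whole set. In that comparison 35 of the 38 were called in either direction, against 49.5% of all genes tested. Of these, 32 were lower, against 24.2% of all genes, and 3 were higher, Tln1, Itgb5 and Sorbs3, against 25.3% of all genes. Without Sorbs2 and Sorbs3, 31 were lower and 2 higher of 36. With no filter on low values, 31 of the 41 were called lower, beside 2901 of all 28630 genes then tested. The groups did not overlap in 36 of the 38, or in 34 of the 36 without Sorbs2 and Sorbs3, against 63% of all genes. The median log2 change was -0.63, beside 0 over all genes. This comparison shares libraries with both others. Together the 41 genes took 0.721% to 0.777% of the fragments in the CKO Tu libraries, 0.833% to 0.971% in the WT Tu libraries and 1.37% to 1.48% in the WT DMSO libraries. Those 3 ranges did not overlap.

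**Figure D1:**
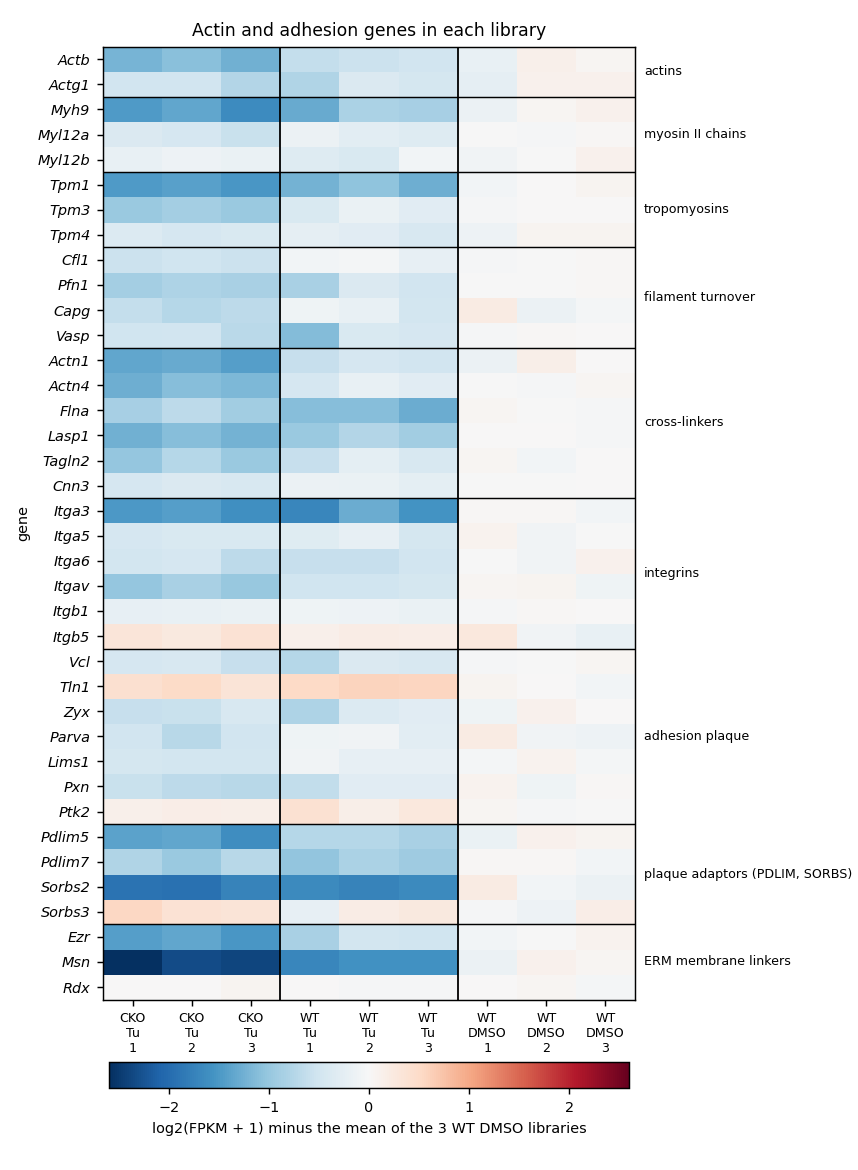
Each row is a member that passed the FPKM filter and each column a library (CKO Tu, WT Tu, WT DMSO, 3 of each), and colour gives log2(FPKM + 1) minus the mean of the WT DMSO libraries. Blue fills most of the CKO Tu and WT Tu columns, most deeply for Msn, Sorbs2, Itga3 and Tpm1, while Tln1 is red in both and Rdx stays near 0.

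Promoter sequence is shown for a few members because SRF and TEAD sites are known from actin and adhesion genes. RefSeq promoters on GRCm38.p6 matched 35 of the 41 members, with 44 windows of 250 bases upstream of a start. Actb, Itga6, Parva, Pxn, Ptk2 and Sorbs3 were not matched. The CArG box, the site of SRF, was searched on both strands and was found in 3 of the 44 windows (6.82%), those of Actg1, Myl9 and Vcl, and in 1.47% of all 32851 windows. The TEAD site CATTCC, on either strand, was found in 7 of the 44 (15.9%) and in 12.6% of all windows. In the lines below the capitals mark the CArG box of Actg1 (chr11:120348496-120348745, minus strand), Myl9 (chr2:156775214-156775463, plus strand) and Vcl (chr14:20929148-20929397, plus strand), and the TEAD site, in reverse, of Tpm1 (chr9:67049214-67049463, minus strand).
Actg1: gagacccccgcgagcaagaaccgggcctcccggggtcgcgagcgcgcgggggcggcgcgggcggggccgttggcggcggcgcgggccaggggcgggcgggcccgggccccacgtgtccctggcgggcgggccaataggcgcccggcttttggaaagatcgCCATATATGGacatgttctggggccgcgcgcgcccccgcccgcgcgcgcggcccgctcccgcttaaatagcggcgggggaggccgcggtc
Myl9: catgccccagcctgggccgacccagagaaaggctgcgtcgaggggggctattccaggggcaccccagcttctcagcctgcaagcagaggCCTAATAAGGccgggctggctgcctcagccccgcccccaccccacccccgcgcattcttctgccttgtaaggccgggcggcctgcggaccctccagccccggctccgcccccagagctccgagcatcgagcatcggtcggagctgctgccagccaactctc
Vcl: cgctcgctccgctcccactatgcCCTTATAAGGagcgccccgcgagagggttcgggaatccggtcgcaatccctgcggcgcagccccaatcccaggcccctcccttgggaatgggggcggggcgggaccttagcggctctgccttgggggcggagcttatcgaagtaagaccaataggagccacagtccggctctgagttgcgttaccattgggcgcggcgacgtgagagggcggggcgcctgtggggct
Tpm1: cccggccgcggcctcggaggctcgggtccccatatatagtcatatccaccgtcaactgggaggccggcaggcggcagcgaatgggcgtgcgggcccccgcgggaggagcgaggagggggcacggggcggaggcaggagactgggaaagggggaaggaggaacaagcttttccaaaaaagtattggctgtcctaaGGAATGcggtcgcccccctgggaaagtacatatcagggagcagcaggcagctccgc
Counted from the RefSeq start site, the CArG box lay at -90 to -81 in Actg1, -161 to -152 in Myl9 and -227 to -218 in Vcl, and the TEAD site at -56 to -51 in Tpm1. The windows of Actg1, Myl9 and Tpm1 lie partly inside the annotated bounds of these genes, and the Tpm1 site lies wholly inside them. The Vcl window also held a TEAD site at -143 to -138. The other members with a TEAD site were Tagln2, Actn4, Itgb1, Pfn1 and Flna. These matches describe letters in a window, and nothing was measured about binding.

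The cytoplasmic actins differed in how they behaved between genotypes. Actb (ENSMUSG00000029580, chr5:142903115-142906754, minus strand, mm10), beta-actin, had 399, 435 and 383 FPKM in the CKO Tu libraries, 598, 623 and 654 FPKM in the WT Tu libraries, and 805, 1008 and 954 FPKM in the WT DMSO libraries. The groups were fully separated, with CKO Tu lowest and WT DMSO highest. It fell in CKO Tu against WT Tu by 0.62 ± 0.09 on the log2 scale (SE; limma, adjusted p = 0.00083) and in WT Tu against WT DMSO by 0.55 ± 0.09 (limma, adjusted p = 0.0017). Actg1, gamma-actin, averaged 315 ± 31.6 FPKM in CKO Tu, 329 ± 45.8 FPKM in WT Tu and 477 ± 63.2 FPKM in WT DMSO (SD, n = 3 each). It fell in WT Tu against WT DMSO by 0.54 ± 0.13 (limma, adjusted p = 0.014), and leaving out WT DMSO replicate 2 or 3 ended the call, at up to adjusted p = 0.054. Between the genotypes under tunicamycin its change was -0.06 ± 0.13 (limma, adjusted p = 0.77), with overlapping groups. Of 75-base stretches of Actg1, 54.5% occur in other transcripts, mostly pseudogenes, so its level is uncertain. Actb made up 56.3 ± 1.71% of the summed FPKM of both actins in CKO Tu, 65.6 ± 2.61% in WT Tu and 66.0 ± 0.768% in WT DMSO, so its share was lower in every CKO Tu library than in any WT library.

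Myosin II, the motor that contracts stress fibres, was represented by a heavy chain and 3 regulatory light chain genes. Myh9 (chr15:77760587-77842175, minus strand), the heavy chain of nonmuscle myosin IIA, had 46.7, 50.6 and 41.6 FPKM in CKO Tu, 51.9, 73.6 and 71.4 FPKM in WT Tu, and 118, 135 and 140 FPKM in WT DMSO. WT Tu replicate 1 lay just above the highest CKO Tu library, and all tunicamycin libraries lay far below vehicle. Its log2 change was -1.0009 ± 0.14 in WT Tu against WT DMSO (limma, adjusted p = 0.00069) and -0.48 ± 0.14 in CKO Tu against WT Tu (limma, adjusted p = 0.023). That genotype call ended with no filter on low values and without WT Tu replicate 2 or 3 or CKO Tu replicate 1 or 3, at up to adjusted p = 0.078, while without WT Tu replicate 1 the change was -0.64 (limma, adjusted p = 0.0014). Myl12a averaged 32.9 ± 2.46 FPKM in CKO Tu, 38.3 ± 2.78 FPKM in WT Tu and 45.9 ± 0.820 FPKM in WT DMSO. It fell by 0.21 ± 0.07 in CKO Tu against WT Tu (limma, adjusted p = 0.041), a call that ended under 6 alternatives and without WT Tu replicate 1 or 2 or CKO Tu replicate 2 or 3, at up to adjusted p = 0.14. It fell by 0.26 ± 0.07 in WT Tu against WT DMSO (limma, adjusted p = 0.022), a call that held without WT Tu replicate 1 but not without any other library, at up to adjusted p = 0.072. Its neighbour Myl12b was near the filter, at 1.21 FPKM on average in CKO Tu, 1.06 FPKM in WT Tu and 1.48 FPKM in WT DMSO, and was not called in any comparison. In WT Tu against WT DMSO it changed by -0.27 ± 0.11 (limma, adjusted p = 0.097), and was called lower with total fragment scaling, at -0.34 (limma, adjusted p = 0.038), and at -0.37 when WT Tu replicate 3 was left out (limma, adjusted p = 0.037). Both light chain genes overlap or share sequence, with 26.9% of 75-base stretches of Myl12a and 32.2% of those of Myl12b occurring in other transcripts. Exons of another annotated gene also named Myl12b overlap 26.7% of the exonic bases of Myl12b. The split between the light chain genes is therefore uncertain. Myl9, the smooth muscle light chain, failed the filter with 4 fragments in all CKO Tu libraries, 0 in all WT Tu libraries, which allows up to 3, and 5 in all WT DMSO libraries.

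Among tropomyosins, Tpm1 and Tpm3 were called lower in each comparison, Tpm1 with its larger change in WT Tu against WT DMSO and Tpm3 in CKO Tu against WT Tu. Tpm1 (chr9:67022590-67049406, minus strand), a source of the high molecular weight tropomyosins of stress fibres, had 24.98, 26.1 and 24.5 FPKM in CKO Tu, 29.8, 33.9 and 29.1 FPKM in WT Tu, and 68.2, 71.5 and 74.7 FPKM in WT DMSO. Tunicamycin libraries of both genotypes lay far below every vehicle library, and the CKO Tu libraries lay below all WT Tu libraries. It fell by 1.18 ± 0.07 in WT Tu against WT DMSO (limma, adjusted p = 4.9e-06) and fell by 0.28 ± 0.07 in CKO Tu against WT Tu (limma, adjusted p = 0.011). Tpm3 (chr3:90072649-90100902, plus strand) had 37.2, 39.3 and 37.0 FPKM in CKO Tu, 55.6, 65.2 and 59.1 FPKM in WT Tu, and 71.6, 74.1 and 73.7 FPKM in WT DMSO. Here the wider gap lay between the genotypes. It fell by 0.65 ± 0.06 in CKO Tu against WT Tu (limma, adjusted p = 0.00012) and by 0.29 ± 0.06 in WT Tu against WT DMSO (limma, adjusted p = 0.0085). Tpm4 fell by 0.32 ± 0.07 in WT Tu against WT DMSO (limma, adjusted p = 0.01), and its change in CKO Tu against WT Tu was -0.09 ± 0.07 (limma, adjusted p = 0.38). Shares within the family were not tested. Tpm1 held 24.0% of the summed tropomyosin FPKM on average in CKO Tu, 22.8% in WT Tu and 35.6% in WT DMSO. Tpm3 held 35.95% in CKO Tu, 44.1% in WT Tu and 36.5% in WT DMSO, and its CKO Tu and WT DMSO libraries overlapped. Tpm4 held 40.1% in CKO Tu, 33.1% in WT Tu and 27.9% in WT DMSO.

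**Figure D2:**
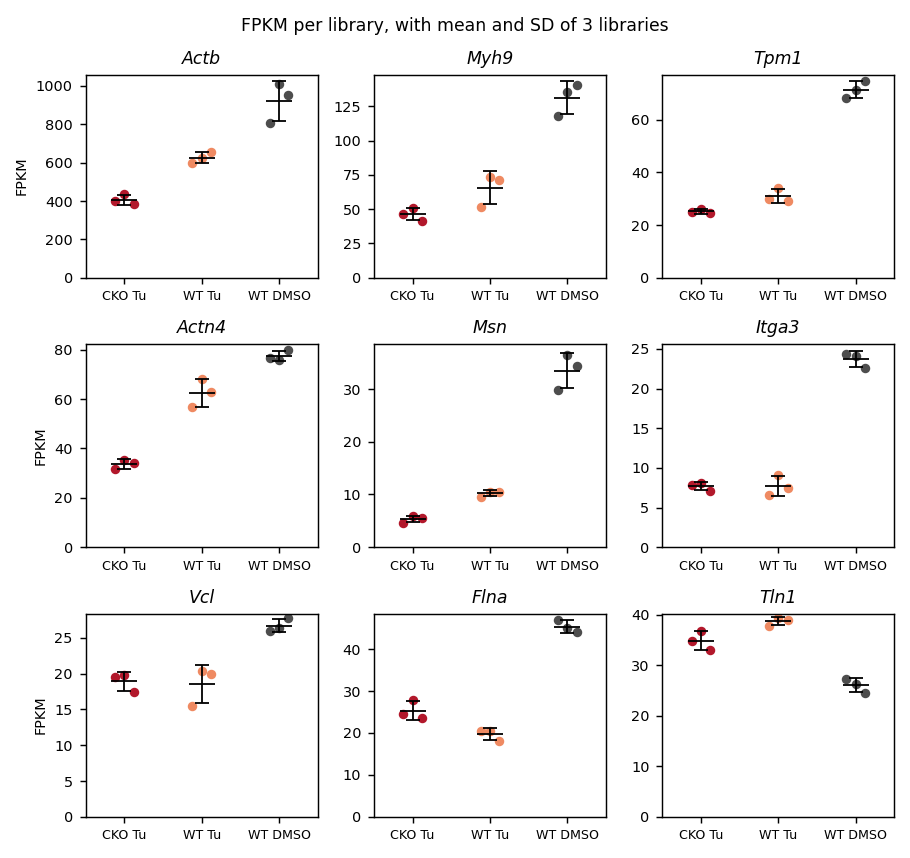
FPKM of 9 members in each library (points), with the mean and SD of the 3 libraries of each group, on axes that start at 0. Actb and Msn step down between all groups, Tpm1 and Itga3 are low in all tunicamycin libraries, Actn4 is low mainly in CKO Tu, Flna is lowest in WT Tu, and Tln1 is higher in both tunicamycin groups than in WT DMSO.

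Genes of filament turnover and capping differed in which comparison they passed. Cfl1, cofilin, which severs filaments, averaged 301 ± 4.49 FPKM in CKO Tu, 409 ± 23.4 FPKM in WT Tu and 441 ± 10.99 FPKM in WT DMSO. It fell in CKO Tu against WT Tu by 0.44 ± 0.05 (limma, adjusted p = 0.0004) and did not pass for WT Tu against WT DMSO (-0.11 ± 0.05, limma, adjusted p = 0.16), though with total fragment scaling it was called lower there, at -0.24 (limma, adjusted p = 0.0085). Pfn1, profilin, which feeds monomers to growing ends, averaged 195 ± 4.54 FPKM in CKO Tu, 238 ± 37.3 FPKM in WT Tu and 352 ± 6.85 FPKM in WT DMSO. It fell by 0.57 ± 0.10 in WT Tu against WT DMSO (limma, adjusted p = 0.0027). Between the genotypes its change was -0.27 ± 0.10 (limma, adjusted p = 0.063), and it was called lower with upper-quartile scaling (adjusted p = 0.039), a weight per library (adjusted p = 0.0011), the GC trend removed (adjusted p = 0.00084) and voom (adjusted p = 0.029), all with limma. Without WT Tu replicate 1, where Pfn1 was at 197 FPKM against 270 and 248 FPKM in the other WT Tu libraries, that change was -0.40 (limma, adjusted p = 0.00046). Vasp, an elongation factor, followed the same library, with 13.5 FPKM in WT Tu replicate 1 against 23.1 and 22.5 FPKM. It fell by 0.66 ± 0.17 in WT Tu against WT DMSO (limma, adjusted p = 0.018), with a change of -0.42 without that library (limma, adjusted p = 0.0021). With no filter, or when WT DMSO replicate 2 or 3 was left out, the call ended, at up to adjusted p = 0.054. Between the genotypes Vasp changed by 0.09 ± 0.17 (limma, adjusted p = 0.73), or by -0.15 without WT Tu replicate 1 (limma, adjusted p = 0.096). Capg, a capping protein with at most 2.53 FPKM in any library, fell in CKO Tu against WT Tu by 0.41 ± 0.13 (limma, adjusted p = 0.036), a call that ended with no filter, with total fragment scaling and without any library but WT Tu replicate 3, at up to adjusted p = 0.1.

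All 6 cross-linkers and other filament-binding genes were called lower in WT Tu against WT DMSO, where 15.9% of all genes tested were. In CKO Tu against WT Tu 5 of the 6 were called lower, where 19.6% of all genes tested were. Actn4 (chr7:28893248-28962340, minus strand), a nonmuscle alpha-actinin, had 31.7, 35.4 and 34.0 FPKM in CKO Tu, 56.9, 68.0 and 62.8 FPKM in WT Tu, and 76.7, 75.8 and 79.9 FPKM in WT DMSO. Actn1 (chr12:80167547-80260371, minus strand), the other nonmuscle alpha-actinin, had 12.5, 12.8 and 11.6 FPKM in CKO Tu, 21.6, 24.0 and 23.2 FPKM in WT Tu, and 29.5, 36.9 and 33.3 FPKM in WT DMSO. For both genes every CKO Tu library lay below every WT Tu library, which in turn lay below every WT DMSO library. Their log2 changes in CKO Tu against WT Tu were -0.87 ± 0.07 for Actn4 (limma, adjusted p = 4.8e-05) and -0.85 ± 0.08 for Actn1 (limma, adjusted p = 0.00013), close to those of Ezr and Msn. In mean FPKM, CKO Tu was 1.86-fold lower than WT Tu for both alpha-actinins, 1.93-fold lower for Ezr and 1.91-fold lower for Msn. In WT Tu against WT DMSO, Actn4 fell by 0.31 ± 0.07 (limma, adjusted p = 0.011) and Actn1 fell by 0.51 ± 0.08 (limma, adjusted p = 0.0018). Actn4 held 73.2 ± 1.36% of the summed alpha-actinin FPKM in CKO Tu, 73.1 ± 0.720% in WT Tu and 70.03 ± 2.54% in WT DMSO, and its share overlapped between the genotypes.

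Flna was the 1 member called higher between the genotypes. Flna (chrX:74223461-74249820, minus strand), filamin A, which joins filaments into networks and binds integrin tails, had 24.5, 27.9 and 23.6 FPKM in CKO Tu, 20.6, 20.5 and 18.1 FPKM in WT Tu, and 47.1, 45.0 and 44.2 FPKM in WT DMSO. WT Tu was lowest, with no overlap. It fell by 1.17 ± 0.08 in WT Tu against WT DMSO (limma, adjusted p = 9.6e-06) and was higher by 0.35 ± 0.08 in CKO Tu against WT Tu (limma, adjusted p = 0.0072), a call that held under every alternative run. Lasp1, a LIM and SH3 protein of stress fibres, fell by 0.32 ± 0.06 in CKO Tu against WT Tu (limma, adjusted p = 0.0047) and fell by 0.88 ± 0.06 in WT Tu against WT DMSO (limma, adjusted p = 1.8e-05). Tagln2 and Cnn3, calponin-family proteins, were lower in each comparison too. For Tagln2 the change was -0.49 ± 0.10 in CKO Tu against WT Tu (limma, adjusted p = 0.0046) and -0.42 ± 0.10 in WT Tu against WT DMSO (limma, adjusted p = 0.01). For Cnn3 it was -0.22 ± 0.05 in CKO Tu against WT Tu (limma, adjusted p = 0.0073) and -0.20 ± 0.05 in WT Tu against WT DMSO (limma, adjusted p = 0.013).

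Most integrin subunits were lower with tunicamycin, and between the genotypes only Itgav passed. Of the 6 tested, 5 were called lower in WT Tu against WT DMSO, where 15.9% of all genes tested were. In CKO Tu against WT Tu 1 of the 6 was called lower, Itgav, where 19.6% of all genes tested were. Itga3 (chr11:95044474-95076801, minus strand), the alpha chain of a laminin receptor, had 7.84, 8.13 and 7.15 FPKM in CKO Tu, 6.58, 9.05 and 7.45 FPKM in WT Tu, and 24.4, 24.2 and 22.6 FPKM in WT DMSO. The tunicamycin libraries of both genotypes overlapped and lay well below vehicle. It fell by 1.52 ± 0.10 in WT Tu against WT DMSO (limma, adjusted p = 9.8e-06) and changed by 0.01 ± 0.10 in CKO Tu against WT Tu (limma, adjusted p = 0.95), with a sign that turned with upper-quartile or quantile scaling. Itga5, of the fibronectin receptor, fell by 0.33 ± 0.07 (limma, adjusted p = 0.0089) and Itga6, of laminin receptors, fell by 0.56 ± 0.09 (limma, adjusted p = 0.0014) in WT Tu against WT DMSO. The Itga5 call was lost when the trend on GC content was removed, at adjusted p = 0.15. Itgav, the alpha chain of vitronectin receptors, averaged 10.045 ± 0.687 FPKM in CKO Tu, 13.9 ± 0.387 FPKM in WT Tu and 20.2 ± 1.42 FPKM in WT DMSO. It fell by 0.44 ± 0.07 in CKO Tu against WT Tu (limma, adjusted p = 0.0013) and fell by 0.50 ± 0.07 in WT Tu against WT DMSO (limma, adjusted p = 0.00072).

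The beta chains showed smaller changes. Itgb1 (chr8:128685654-128733200, plus strand), the partner of most alpha chains here, had 128, 129 and 131 FPKM in CKO Tu, 137, 135 and 131 FPKM in WT Tu, and 144, 150 and 149 FPKM in WT DMSO. The groups were close but did not overlap, and the lowest WT Tu library lay just above the highest CKO Tu library. Itgb1 fell by 0.13 ± 0.04 in WT Tu against WT DMSO (limma, adjusted p = 0.043), but the call ended under 5 alternatives, the replicate block among them (limma, adjusted p = 0.085), and without WT DMSO replicate 2 or 3 or WT Tu replicate 2 or 3, at up to adjusted p = 0.13. Its change in CKO Tu against WT Tu was -0.06 ± 0.04 (limma, adjusted p = 0.35). The FPKM of Itgb1 was 4.86 ± 0.277 times that of the 5 alpha chains summed in CKO Tu, 4.36 ± 0.251 times in WT Tu and 2.61 ± 0.137 times in WT DMSO. Itgb5, a partner of Itgav, averaged 25.9 ± 1.23 FPKM in CKO Tu, 23.3 ± 0.572 FPKM in WT Tu and 20.9 ± 3.94 FPKM in WT DMSO, where replicate 1 was at 25.4 FPKM. It was called higher in CKO Tu against WT DMSO (0.31 ± 0.11, limma, adjusted p = 0.041), with overlapping groups, and that call ended under 7 alternatives and without any library but WT DMSO replicate 1, at up to adjusted p = 0.14. Itga1, a collagen receptor chain, failed the filter, with 202 fragments summed over the CKO Tu libraries, 182 over the WT Tu libraries and 186 over the WT DMSO libraries.

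In the adhesion plaque, the talin gene rose in WT Tu against WT DMSO while those of vinculin, zyxin and paxillin fell. Tln1 (chr4:43531519-43562691, minus strand), talin 1, which binds integrin tails and switches integrins on, had 34.8, 36.8 and 33.0 FPKM in CKO Tu, 37.8, 39.3 and 38.9 FPKM in WT Tu, and 27.3, 26.2 and 24.6 FPKM in WT DMSO. It was chosen for this detail after its values were seen. All tunicamycin libraries lay above all vehicle libraries. Tln1 rose by 0.56 ± 0.06 in WT Tu against WT DMSO (limma, adjusted p = 0.00017) and by 0.41 ± 0.06 in CKO Tu against WT DMSO (limma, adjusted p = 0.00046), while its change in CKO Tu against WT Tu was -0.15 ± 0.06 (limma, adjusted p = 0.082), or -0.20 with the GC trend removed (limma, adjusted p = 0.034). Vcl (chr14:20929398-21033676, plus strand), vinculin, which talin recruits, had 19.6, 19.8 and 17.4 FPKM in CKO Tu, 15.5, 20.4 and 19.9 FPKM in WT Tu, and 26.0, 26.4 and 27.8 FPKM in WT DMSO. The genotypes overlapped, with WT Tu replicate 1 lowest. It fell by 0.51 ± 0.10 in WT Tu against WT DMSO (limma, adjusted p = 0.0049) and changed by 0.03 ± 0.10 in CKO Tu against WT Tu (limma, adjusted p = 0.82), or by -0.09 without WT Tu replicate 1. Exons of Ap3m1 overlap 25.5% of the exonic bases of Vcl, so its level is uncertain.

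The remaining plaque genes differed in which comparison they passed. Zyx, zyxin, a LIM protein that senses strain in stress fibres, fell by 0.49 ± 0.13 in WT Tu against WT DMSO (limma, adjusted p = 0.02). Without WT Tu replicate 1 the change was -0.33 (limma, adjusted p = 0.02), and the call ended with no filter, in the fit to only those groups and without WT DMSO replicate 2 or 3, at up to adjusted p = 0.07. Pxn, paxillin, a scaffold of the plaque, fell by 0.41 ± 0.10 in that comparison (limma, adjusted p = 0.016), and leaving out WT DMSO replicate 1 or 3 ended the call, at up to adjusted p = 0.054. Between the genotypes Pxn changed by -0.25 ± 0.10 (limma, adjusted p = 0.092), or by -0.37 without WT Tu replicate 1 (limma, adjusted p = 0.0052), and was called lower with a weight per library (limma, adjusted p = 0.0042) and with the GC trend removed (limma, adjusted p = 0.008). Parva, parvin alpha, and Lims1, the adaptor PINCH, which join integrin-linked kinase in a complex, both fell in CKO Tu against WT Tu. Parva fell by 0.42 ± 0.11 (limma, adjusted p = 0.019), a call that ended with no filter and without WT Tu replicate 2 or CKO Tu replicate 2, at up to adjusted p = 0.069. Lims1 fell by 0.30 ± 0.06 (limma, adjusted p = 0.0044). In WT Tu against WT DMSO, Parva changed by -0.16 ± 0.11 (limma, adjusted p = 0.32) and Lims1 by -0.17 ± 0.06 (limma, adjusted p = 0.051), and Lims1 was called lower there under 7 alternatives and without WT Tu replicate 1. The kinase itself, Ilk, failed the filter with 13 fragments over all CKO Tu libraries, 8 over all WT Tu libraries and 17 over all WT DMSO libraries, and exons of Taf10 and Rrp8 overlap 89.7% of its exonic bases. Ptk2, focal adhesion kinase, averaged 8.23 ± 0.127 FPKM in CKO Tu, 9.12 ± 0.891 FPKM in WT Tu and 7.36 ± 0.285 FPKM in WT DMSO. It rose by 0.27 ± 0.07 in WT Tu against WT DMSO (limma, adjusted p = 0.017), a call that ended with total fragment scaling, in the fit to only those groups, and without WT DMSO replicate 2 or 3, at up to adjusted p = 0.09.

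Adaptors of the PDLIM family, which carry a PDZ domain that binds alpha-actinin, were among the larger falls. Pdlim5 (chr3:142239590-142395696, minus strand) had 12.5, 13.1 and 10.6 FPKM in CKO Tu, 20.5, 20.5 and 18.8 FPKM in WT Tu, and 30.7, 37.5 and 36.3 FPKM in WT DMSO. The groups were separated in the same order as for the alpha-actinins. It fell by 0.68 ± 0.10 in CKO Tu against WT Tu (limma, adjusted p = 0.00072) and fell by 0.77 ± 0.10 in WT Tu against WT DMSO (limma, adjusted p = 0.00041). Pdlim7 fell by 0.92 ± 0.08 in WT Tu against WT DMSO (limma, adjusted p = 5.1e-05), and changed by 0.10 ± 0.08 in CKO Tu against WT Tu (limma, adjusted p = 0.35). Sorbs2 (chr8:45507788-45827906, plus strand), a vinexin-family adaptor of vinculin, had 0.589, 0.565 and 0.794 FPKM in CKO Tu, 0.886, 0.792 and 0.890 FPKM in WT Tu, and 5.96, 4.71 and 4.39 FPKM in WT DMSO. In mean FPKM it was 7.73-fold lower in CKO Tu and 5.86-fold lower in WT Tu than in WT DMSO. Since the WT DMSO libraries alone brought it past the filter, these values are a description. Sorbs3, vinexin, averaged 1.23 ± 0.169 FPKM in CKO Tu, 0.776 ± 0.290 FPKM in WT Tu and 0.671 ± 0.182 FPKM in WT DMSO. It passed the filter through the CKO Tu libraries alone, and its call as higher in CKO Tu against WT DMSO ended under 6 alternatives and without any library but WT DMSO replicate 3, at up to adjusted p = 0.13 (limma).

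Among the ERM linkers, moesin and ezrin were lower in each comparison, and radixin was not called in any. Msn (chrX:96096042-96168552, plus strand), moesin, had 4.65, 5.87 and 5.54 FPKM in CKO Tu, 9.62, 10.5 and 10.6 FPKM in WT Tu, and 29.7, 36.4 and 34.4 FPKM in WT DMSO. Ezr (chr17:6738041-6782784, minus strand), ezrin, which is typical of microvilli in epithelia, had 5.26, 5.69 and 4.91 FPKM in CKO Tu, 8.52, 11.2 and 10.9 FPKM in WT Tu, and 15.1, 15.8 and 17.1 FPKM in WT DMSO. Rdx (chr9:52047173-52088735, plus strand), radixin, the ERM protein of bile canaliculi, also chosen after its values were seen, had 48.9, 48.4 and 50.9 FPKM in CKO Tu, 48.9, 47.2 and 47.4 FPKM in WT Tu, and 48.7, 49.97 and 46.3 FPKM in WT DMSO. Msn and Ezr thus stepped down in both comparisons with no overlap, while the libraries of all groups overlapped for Rdx. Msn fell by 0.83 ± 0.10 in CKO Tu against WT Tu (limma, adjusted p = 0.00028) and fell by 1.62 ± 0.10 in WT Tu against WT DMSO (limma, adjusted p = 5.6e-06), and its mean FPKM was 6.26-fold lower in CKO Tu than in WT DMSO. Ezr fell by 0.83 ± 0.10 in CKO Tu against WT Tu (limma, adjusted p = 0.00036) and fell by 0.61 ± 0.10 in WT Tu against WT DMSO (limma, adjusted p = 0.002). Rdx changed by 0.05 ± 0.05 in CKO Tu against WT Tu (limma, adjusted p = 0.5) and by -0.02 ± 0.05 in WT Tu against WT DMSO (limma, adjusted p = 0.83), or by -0.14 there with total fragment scaling (limma, adjusted p = 0.044). Radixin made up 82.3 ± 1.35% of the summed ERM FPKM in CKO Tu, 70.1 ± 2.47% in WT Tu and 49.5 ± 2.38% in WT DMSO. Moesin made up 8.91 ± 0.945% in CKO Tu, 15.0 ± 0.549% in WT Tu and 34.2 ± 2.10% in WT DMSO. Moesin is also abundant in endothelial cells, whose markers are given further on.

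**Figure D3:**
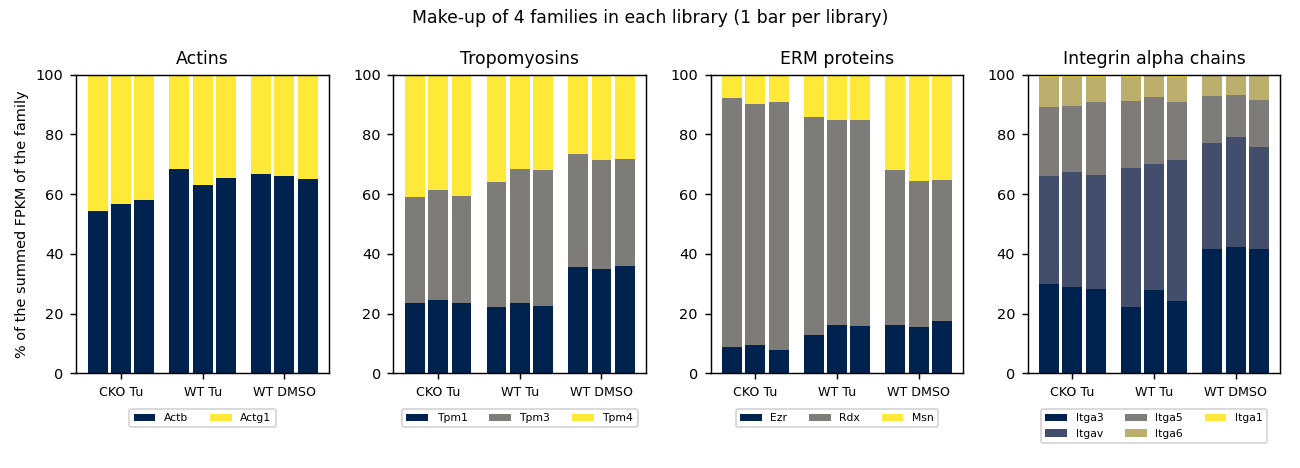
Each bar is a library, split into the percent of the summed FPKM that each gene held within the actins, tropomyosins, ERM proteins and integrin alpha chains, with CKO Tu, WT Tu and WT DMSO from left to right. The Actb share is lowest in CKO Tu, the Tpm1 and Itga3 shares are lower in all tunicamycin libraries than in WT DMSO, and the Rdx share is highest in CKO Tu and lowest in WT DMSO. With 3 libraries against 3, an exact two-sided permutation test cannot go below p = 0.10, so the shares are given without a test.

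Several of the 36 members other than Sorbs2 and Sorbs3 lay far below vehicle in CKO Tu. In CKO Tu against WT DMSO, Msn fell by 2.44 ± 0.10 (limma, adjusted p = 2.2e-07) and Itga3 fell by 1.51 ± 0.10 (limma, adjusted p = 4.6e-06). Myh9 followed with a change of -1.48 ± 0.14 (limma, adjusted p = 3.4e-05), Tpm1 with -1.47 ± 0.07 (limma, adjusted p = 5.7e-07) and Pdlim5 with -1.46 ± 0.10 (limma, adjusted p = 4.5e-06). Actb fell by 1.18 ± 0.09 (limma, adjusted p = 1.1e-05). Vasp fell by 0.57 ± 0.17 (limma, adjusted p = 0.022), a call that ended with no filter and without WT DMSO replicate 2 or 3 or CKO Tu replicate 3, at up to adjusted p = 0.073. Myl12b, Ptk2 and Rdx did not pass, though Ptk2 was called higher in the fit to only those groups (limma, adjusted p = 0.047) and with a weight per library (limma, adjusted p = 0.023).

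**Figure D4:**
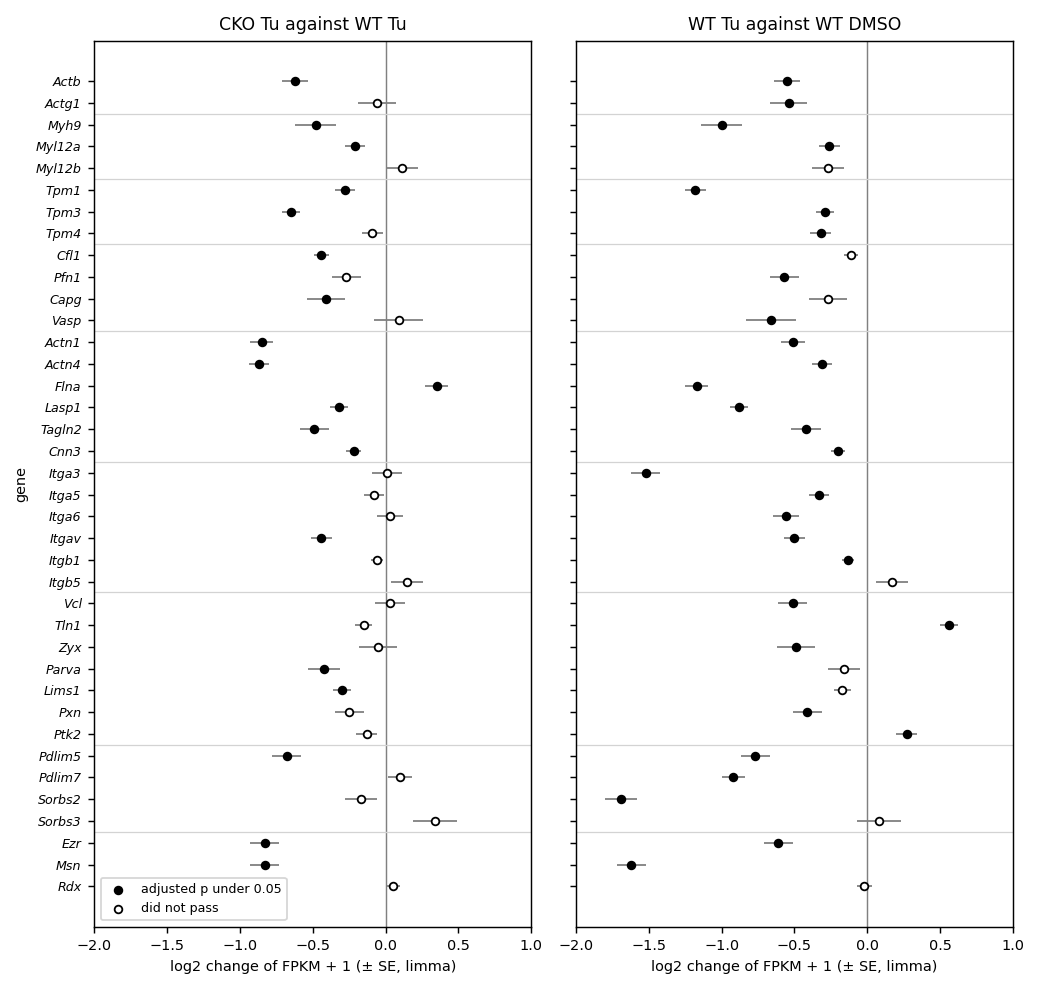
The log2 change of FPKM + 1 with its SE from limma for each member tested, in CKO Tu against WT Tu (left) and WT Tu against WT DMSO (right), with filled points for an adjusted p under 0.05. Actn4, Actn1, Ezr, Msn, Pdlim5, Tpm3 and Actb lie farthest left between the genotypes and Flna lies right of 0, while Sorbs2, Msn, Itga3, Tpm1 and Flna lie farthest left for tunicamycin, where Tln1 and Ptk2 lie right of 0.

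Other filament-binding, cross-linking and motor genes were mostly lower with tunicamycin, as the members were, and moved both ways between the genotypes. Of 21 tested among 38 listed, 15 were called lower and 1 higher in WT Tu against WT DMSO, with a median log2 change of -0.40. Of all genes tested, 15.9% were called lower and 17.7% higher there. The 15 included Flnc, a filamin gene, which fell by 1.34 ± 0.12 (limma, adjusted p = 6.6e-05). The exception was Csrp1, a LIM protein of filaments, which rose by 0.71 ± 0.12 (limma, adjusted p = 0.0022). Between the genotypes 9 of the 21 were called lower and 3 higher, where 19.6% and 18.7% of all genes were, with a median of -0.10. Cald1, caldesmon, fell by 0.65 ± 0.05 in CKO Tu against WT Tu (limma, adjusted p = 4e-05), and Add1, an adducin, rose by 0.61 ± 0.06 (limma, adjusted p = 0.00019).

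Genes of nucleation and turnover had smaller median changes than the members, and more were called lower than higher between the genotypes. Of 30 tested genes of nucleation, capping and turnover, out of 33, 4 were called higher and 5 lower in WT Tu against WT DMSO (median -0.03). Of all genes tested, 17.7% were called higher and 15.9% lower there. In CKO Tu against WT Tu, 3 were called higher and 12 lower (median -0.12), where 18.7% and 19.6% of all genes were. Actr3, a subunit of the Arp2/3 nucleator, fell by 0.46 ± 0.06 between the genotypes (limma, adjusted p = 0.00062). Tmsb10, a thymosin that sequesters monomers, was higher by 2.03 ± 0.42 there (limma, adjusted p = 0.0057), with means of 105 ± 8.77 FPKM in CKO Tu and 29.0 ± 16.4 FPKM in WT Tu.

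On the adhesion side, 31 of 41 other plaque and integrin signalling genes were tested. In WT Tu against WT DMSO 12 were called lower and 5 higher, where 15.9% and 17.7% of all genes were, with a median of -0.19. Kank1, which binds talin at the rim of adhesions, rose by 1.45 ± 0.07 (limma, adjusted p = 1.6e-06), whereas its relative Kank2 fell by 1.09 ± 0.12 (limma, adjusted p = 0.00016). Ajuba, a LIM protein related to zyxin, fell by 2.15 ± 0.09 (limma, adjusted p = 6.2e-07). Between the genotypes 6 were called lower and 10 higher, where 19.6% and 18.7% of all genes were, with a median of 0.05. The tensin gene Tns2 was higher in CKO Tu by 0.58 ± 0.05 (limma, adjusted p = 7.2e-05). Of 18 other integrins only 3 passed the filter. Itga2b, known from platelets, rose by 0.51 ± 0.06 in CKO Tu against WT Tu (limma, adjusted p = 0.00044) and fell by 0.21 ± 0.06 in WT Tu against WT DMSO (limma, adjusted p = 0.033).

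Matrix ligands of integrins were mostly lower with tunicamycin and moved both ways between the genotypes. Of 25 listed, 11 were tested, and in WT Tu against WT DMSO 8 were called lower and none higher, with a median of -0.92. Of all genes, 15.9% were called lower and 17.7% higher there. Between the genotypes 4 were called lower and 5 higher in CKO Tu, where 19.6% and 18.7% of all genes were, with a median of 0.02. Fn1, fibronectin, averaged 43.9 ± 3.69 FPKM in CKO Tu, 18.7 ± 1.86 FPKM in WT Tu and 56.8 ± 9.08 FPKM in WT DMSO. It was higher by 1.19 ± 0.12 in CKO Tu against WT Tu (limma, adjusted p = 0.00016) and fell by 1.55 ± 0.12 in WT Tu against WT DMSO (limma, adjusted p = 3e-05). The alpha chain gene of its receptor, Itga5, changed by -0.08 ± 0.07 between the genotypes (limma, adjusted p = 0.41). Nid1, nidogen, a basement membrane linker, fell by 0.71 ± 0.06 in CKO Tu against WT Tu (limma, adjusted p = 5.3e-05) and fell by 1.69 ± 0.06 in WT Tu against WT DMSO (limma, adjusted p = 2.9e-07). Col4a1, a chain of basement membrane collagen, was higher by 0.88 ± 0.11 in CKO Tu against WT Tu (limma, adjusted p = 0.00041) and fell by 1.17 ± 0.11 in WT Tu against WT DMSO (limma, adjusted p = 8.2e-05).

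The 41 genes lie on 19 chromosomes. Those tested had a median gene length of 5161 bases, against 3651 over all genes tested, and a median GC content of 52.4% against 49.4%. Across 11848 genes, the log2 change correlated with GC content with a Spearman coefficient of -0.344 in WT Tu against WT DMSO and 0.093 in CKO Tu against WT Tu, as a description over genes that share libraries. With that trend removed, an alternative added after seeing the data, 28 members were called lower and 2 higher in WT Tu against WT DMSO. Of all genes, 1739 were called lower and 2014 higher there. The median change of the members was then smaller, at -0.354 against -0.45. In CKO Tu against WT Tu, 20 members were called lower and 1 higher, beside 2542 and 2390 of all genes. Their median there was -0.20 against -0.22. The scaling of the libraries moved the background as well as the members. For WT Tu against WT DMSO, 52.7% of all calls were higher as deposited, 42.3% with upper-quartile scaling and 31.5% with scaling to total fragments, where the median of all genes moved to -0.11 and that of the members to -0.58.

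Cell make-up was read from marker genes, and fewer cells of a type cannot be told apart from less RNA per cell in such bulk libraries. Of 12 hepatocyte markers 11 were found, led by Alb with 359276 to 388952 fragments in the CKO Tu libraries, 495621 to 499658 in the WT Tu libraries and 505800 to 580530 in the WT DMSO libraries. In CKO Tu against WT Tu, 8 of the 11 were called higher and 2 lower, where 18.7% and 19.6% of all genes were. In WT Tu against WT DMSO 1 was called higher and 3 lower, where 17.7% and 15.9% of all genes were. Most endothelial markers tested were lower with tunicamycin, and most did not pass between the genotypes, where their fragments were few. Their 12 genes summed to 414 to 431 fragments in CKO Tu, 500 to 572 in WT Tu and 1176 to 1293 in WT DMSO. Of the 5 tested, 4 were called lower in WT Tu against WT DMSO (median log2 change -0.75), where 15.9% of all genes were. In CKO Tu against WT Tu 1 was called lower (median -0.08), where 19.6% of all genes were. Eng, Stab1 and Pecam1 averaged under 1 FPKM in both tunicamycin groups, against 2.71, 2.39 and 1.39 FPKM in WT DMSO. They owe their place among the genes tested to WT DMSO, so these counts are a description and not support. Stab1 had 116 to 141 fragments in CKO Tu, 129 to 150 in WT Tu and 344 to 474 in WT DMSO, and Eng had 25 to 40 in CKO Tu, 30 to 42 in WT Tu and 155 to 191 in WT DMSO. Pecam1 had 18 to 23 fragments in CKO Tu, 49 to 72 in WT Tu and 134 to 143 in WT DMSO, and Msn had 461 to 576 in CKO Tu, 866 to 1046 in WT Tu and 3000 to 3793 in WT DMSO. The marker Tek overlapped between the groups, at 38 to 51 fragments in CKO Tu. It had 45 to 99 in WT Tu and 46 to 75 in WT DMSO. None of the 12 was at 0 in all libraries of a group. The part of endothelial cells in the results was not tested.

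Markers of other cell types gave these sums. The 16 markers of stellate cells and fibroblasts summed to 782 to 997 fragments in CKO Tu, 251 to 295 in WT Tu and 290 to 362 in WT DMSO, and Reln alone made up 580 to 759 of those in CKO Tu. Acta2, which encodes the smooth muscle actin of activated stellate cells, had at most 5 fragments in any library and Tagln at most 11, while Hand2, Lum and Col1a1 were at 0 in CKO Tu. The 10 Kupffer cell markers summed to 1793 to 2101 fragments in CKO Tu, 1748 to 2237 in WT Tu and 1560 to 1992 in WT DMSO. Nearly all came from Cd68, and other markers went the other way. Lyz2 had 0 to 6 fragments in CKO Tu, 1 to 6 in WT Tu and 25 to 36 in WT DMSO. Mpeg1 had 11 to 19 in CKO Tu, 9 to 19 in WT Tu and 29 to 53 in WT DMSO. Csf1r had 6 to 12 in CKO Tu, 3 to 11 in WT Tu and 20 to 26 in WT DMSO. Vsig4 was at 0 in all libraries, and Adgre1, Clec4f, Timd4, Marco and Cd5l were at 0 in CKO Tu. The 8 cholangiocyte markers summed to 1215 to 1378 in CKO Tu, 768 to 906 in WT Tu and 936 to 1105 in WT DMSO, with Tspan8 at 0 in all. The 10 lymphocyte and neutrophil markers summed to 8 to 16 in CKO Tu, 10 to 19 in WT Tu and 20 to 23 in WT DMSO. The part of these cells in the results was not tested.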

How the data were processed

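RNA libraries of primary mouse hepatocytes were read from 1 table of FPKM values for 54532 genes, deposited by the authors. Per the submitters' processing notes, HISAT2 2.2.1, featureCounts 1.5.0-p3 and mm10 were used. Strandedness and annotation version are not given in the sources used here. FPKM multiplied by length came in whole steps for each library, in 100% of values and within 0.001 fragments, which gave the fragments per gene. The sizes that the deposited FPKM imply were 0.948 to 1.07 times the summed fragments.

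Genes whose FPKM reached 1 in 3 or more libraries were fitted as log2(FPKM + 1) with limma 3.58.1 in R 4.3.3, with a mean per group, all 9 libraries and an intensity trend. P-values of the 3 comparisons were adjusted by Benjamini-Hochberg over all 11858 genes. Scripts were tested on simulated data. Errors beside changes are standard errors, and those beside levels are SD of 3 libraries. GC content and overlaps came from GENCODE M21, whose coordinates matched all 41 members.

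Members and gene lists were chosen with earlier results of these data known. All members are named. Values in every library are given for the 6 largest called changes without overlap in each comparison, for Actb, Itgb1, Vcl and Myh9, and for Tln1 and Rdx. Up to 4 genes per list were eligible by the same rule, and 1 list and 1 gene are not reported here. Alternatives changed the pseudocount to 0.1, the filter to none or to FPKM of 5, the scaling, the libraries fitted, the replicate block, the trend and the library weights. Added after seeing the data were a correction for GC content (lowess, span 0.3) and voom on the recovered fragments.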

Additional observations from a re-analysis of the deposited data

How the results depend on the processing

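Under the alternatives run, the counts of members called lower stayed within 1.5 times the values reported: 25 to 32 for WT Tu against WT DMSO, 14 to 20 for CKO Tu against WT Tu and 28 to 32 for CKO Tu against WT DMSO, and with each library left out 22 to 29, 14 to 18 and 31 to 32. Flna was the 1 member called higher in CKO Tu against WT Tu under all of them. The 2 members called higher in WT Tu against WT DMSO became 1 with total fragment scaling and in the fit to only the 2 groups, 3 with a weight per library, where Itgb5 was added at 0.2644 (limma, adjusted p = 0.048), and 1 to 3 with a library left out. The 3 called higher in CKO Tu against WT DMSO became 1 with no filter, upper-quartile scaling, quantile normalization, total fragment scaling or the replicate block, and 1 to 2 with a library left out. The cause was not tested.

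Signs turned only for members that passed no test in either fit. For CKO Tu against WT Tu these were, on the log2 scale, Actg1 at 0.0017, Itgb1 at 0.0010 and Zyx at 0.0061 with total fragment scaling, Itga3 at -0.0075 with upper-quartile scaling and -0.0066, Itga6 at -0.0216 and Itgb1 at 0.0504 with quantile normalization, Vasp at -0.0905, Itga3 at -0.0640 and Vcl at -0.0485 with a weight per library, and Itga3 at -0.0630 with the GC trend removed. For CKO Tu against WT DMSO, Rdx was at -0.0430, -0.0281, -0.0431 and -0.0584 with upper-quartile scaling, quantile normalization, total fragment scaling and the GC trend removed. With each library left out in CKO Tu against WT Tu, the change ran from -0.1738 to 0.0306 for Actg1, -0.1536 to 0.2135 for Vasp, -0.0832 to 0.1196 for Itga3, -0.0185 to 0.1003 for Itga6, -0.0858 to 0.1027 for Vcl and -0.2071 to 0.0489 for Zyx. In WT Tu against WT DMSO it ran from -0.0092 to 0.2211 for Sorbs3 and from -0.0446 to 0.0086 for Rdx.

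Deviations of libraries with the same replicate number correlated at -0.1 to 0.02, so the numbers were not taken to pair libraries. With the replicate block, 27 members were lower and 2 higher in WT Tu against WT DMSO, 18 and 1 in CKO Tu against WT Tu, and 32 and 1 in CKO Tu against WT DMSO. Both count-model tests planned on the recovered fragments were not run. Low fragment counts limit Myl9, Ilk, Itga1, Myl12b, Capg and Sorbs3, and exons of other annotated genes overlap those of Ilk and Myl12b.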
